A study of Mus musculus with 32 samples.

Results

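The AE17 SC group consists of 8 subcutaneous (SC) tumors of the murine mesothelioma cell line AE17, each from its own mouse, among 32 tumors in the whole series. They were taken by title as AE17 SC replicates 1 to 8, and they are called tumors 1 to 8 here. The study set 2 mesothelioma lines growing under the skin or in the pleural space side by side, and here the question is how far the 8 AE17 SC tumors differed among themselves. Female C57BL/6 mice of 8 to 10 weeks of age were given 1000000 AE17 cells in 100 µL of PBS under the skin of the right flank, and were left untreated. At day 10 each tumor was taken out with the tissue around it, which per the study's methods was later trimmed off, and polyA RNA of the whole tumor was sequenced. The 8 AB1 SC tumors, used only to set the spread in context, came from 500000 cells of the AB1 line in female BALB/c mice of the same age and day. All mice carried a transplanted line grown in culture, so that the spread among tumors of a group is not a spread among separately arisen tumors.

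A transplanted tumor holds the inoculated cancer cells together with cells of the host. CD8 T cells recognize peptides on MHC class I molecules and kill through cytotoxic granules, and the interferon gamma they release raises MHC, guanylate-binding protein and chemokine genes in the cells around them. A tumor under the skin borders dermis, fat and the thin muscle layer of the skin, so RNA of these tissues can also be present. In bulk RNA, fewer cells of a type and less RNA per cell cannot be told apart.

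Total counts ranged from 16013042 to 17740547 per tumor, all on lane 1, so that a count of 3, taken as the detection limit, stood for 0.173 to 0.188 CPM (counts scaled to the size of the library). TMM factors lay between 0.979 and 1.012, and the counts of the 28 pairs of tumors differed far more than counting error allows, with a chi-square of 5.51 to 91.9 for each degree of freedom, and no library was a copy of another. Of 10 mesothelial markers listed, 8 had a row used here, and most were low. Wt1, a mesothelial transcription factor, reached no more than 0.288 CPM in any tumor, whereas Krt19 lay between 0.236 and 10.1 CPM and Bnc1 between 2.82 and 9.27 CPM.

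Some tumors stood apart from the rest. A score was formed for each of 52 marker lists as the mean log2 CPM of its genes, centered over the 8 tumors. Of the 24 immune lists, 22 had their lowest score in tumor 8, and 14 had their highest in tumor 1 and 7 in tumor 3. Of the 16 tissue lists, 7 were highest in tumor 6, while 6 were lowest in tumor 4 and 6 in tumor 8. The first principal component held 48.5% of the variance of log2 CPM over all 13263 genes that passed the count filter. Tumor 1 at -36.2 and tumor 3 at -31.0 were at one end, and tumor 6 at 23.6 and tumor 8 at 49.4 at the other. Many of the counts below are therefore given also without tumor 8, or without tumors 1 and 8.

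**Figure D1:**
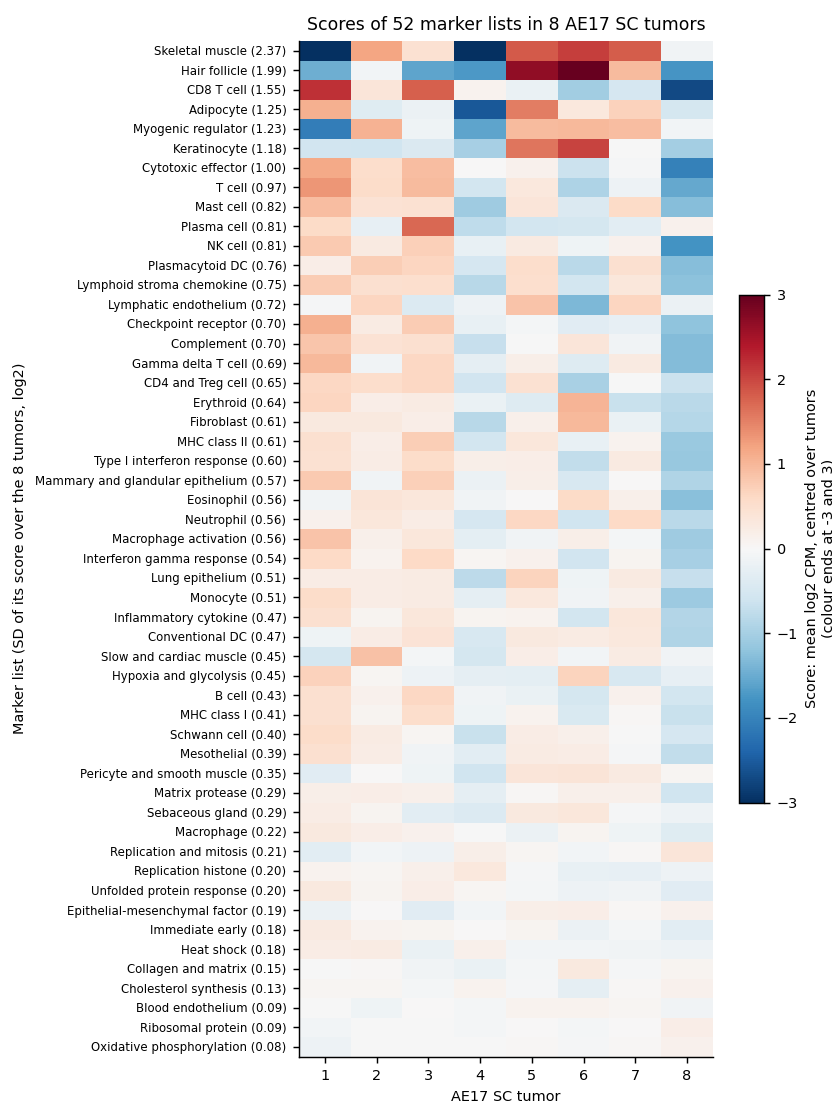
Scores of 52 marker lists (rows, ordered by their SD, given in brackets) in the 8 AE17 SC tumors (columns); color gives the mean log2 CPM of the list centered over the tumors, red above and blue below the mean. Skeletal muscle, hair follicle and CD8 T cell lists varied most, with SDs of 2.37, 1.99 and 1.55, and oxidative phosphorylation varied least, with an SD of 0.08.

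To find which genes varied most for their level, each gene's edgeR quasi-dispersion was divided by that of the trend through genes of like level. The quasi-dispersion compares a gene's spread among the 8 tumors with a model of counting noise plus the spread usual at its level. Most genes differed little among tumors. Of the 9522 genes that averaged 10 CPM or more, the highest tumor exceeded the lowest by a median of 1.43-fold, and 1640 genes (17.2%) differed over 2-fold, 346 (3.63%) over 4-fold and 69 (0.725%) over 10-fold. The edgeR F test, which allows each gene its own true spread (prior degrees of freedom 2.86), called 0 of 13263 genes (0%) at an adjusted p under 0.05, with 754 at an unadjusted p under 0.05, and the DESeq2 outlier rule called 94. When the trend was instead taken as exact, in an upper-tail chi-square test added after seeing the data, 3186 genes (24%) varied more than genes of like level, and only these are called above the trend below. The ratio was over 10 in 702 genes and its median over all tested genes was 1.12. Without tumor 8, 2784 of 13462 genes (20.7%) were above the trend, of which 2533 were shared with the set from all tumors, and without tumors 1 and 8 there were 2511 (18.6%). Only genes above a count limit in all 8 tumors could be tested, so genes that were present in a few tumors are described by their values alone.

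**Figure D2:**
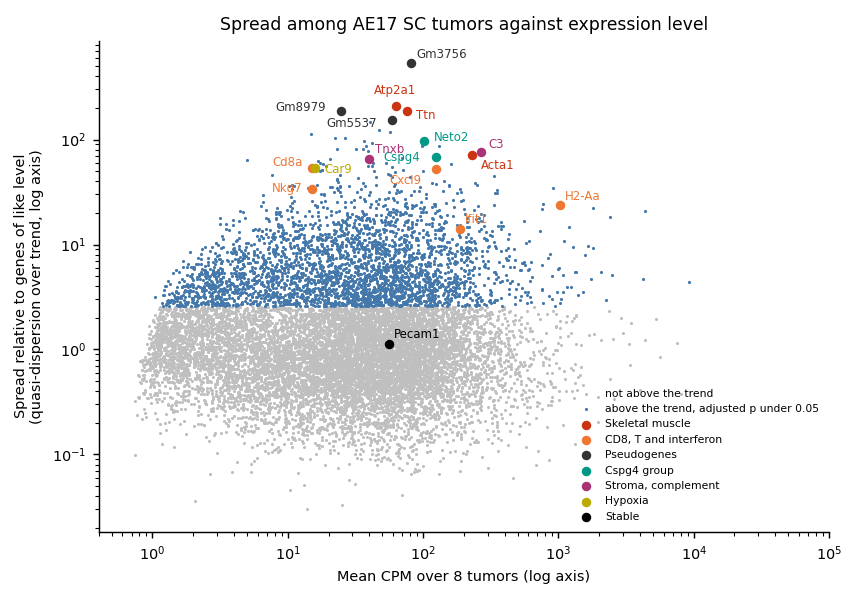
Mean CPM over the 8 tumors (horizontal, log axis) against the ratio of quasi-dispersion to trend (vertical, log axis) for 13263 genes; blue points are the 3186 genes above the trend and named points are genes described in the text. Muscle genes, single-tumor pseudogenes and the Neto2 and Cspg4 pair lie far above genes of like level, and the endothelial gene Pecam1 lies near 1, at 1.13.

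CD8 T cells showed the widest range of all immune lists. Cd8a (chromosome 6, encoding the CD8 alpha chain) was at 44.9 CPM in tumor 1, 11.2 in tumor 2, 33.0 in tumor 3, 10.8 in tumor 4, 8.44 in tumor 5, 4.79 in tumor 6, 6.34 in tumor 7 and 0.885 in tumor 8. Its partner Cd8b1 followed the same order at the ends, from 18.7 CPM in tumor 1 and 14.6 in tumor 3 to 0.826 in tumor 8. Tumors 1 and 3 thus lay well above the other 6, and tumor 8 well below. The ratio to the trend was 53.5 for Cd8a, a rank of 40 among all tested genes, and 25.5 for Cd8b1. The CD8 T cell score fell from 2.19 in tumor 1 to -2.71 in tumor 8 on the log2 scale.

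The other T cell genes spread in the same way. All 15 tested T cell genes were above the trend, against 24% of all genes, with a median ratio of 17.4, and all 15 stayed so without tumors 1 and 8. Cd3e, a chain of the T cell receptor complex, ranged from 1.42 CPM in tumor 8 through a median of 5.22 to 16.2 in tumor 1, and Lck, the kinase that starts receptor signaling, from 3.96 through 15.6 to 42.2. The 6 tested cytotoxic effector genes were all above the trend. Nkg7, a protein of cytotoxic granules, was at 35.9 CPM in tumor 1 and 31.9 in tumor 3, at 1.89 in tumor 8 and between 6.14 and 12.7 in the other 5. Ccl5, a chemokine that T cells release, spanned 20.4 to 129 CPM. Gzmk, a granzyme of CD8 T cells too low to be tested, was at 3.34 and 3.23 CPM in tumors 1 and 3, at 0 in tumor 8, and no higher than 1.39 CPM elsewhere.

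Checkpoint receptors had the same tumors at their ends as the CD8 genes, and the CD4 and regulatory T cell score was highest in tumors 3 and 1 but lowest in tumor 6. Pdcd1, which encodes PD-1, fell from 18.03 CPM in tumor 1 and 14.2 in tumor 3 to 1.12 in tumor 8, a 16.1-fold range. Lag3 lay at 17.6 and 14.1 CPM in tumors 1 and 3 and between 3.72 and 7.49 in the other 6. Foxp3, the defining factor of regulatory T cells, instead had 4 tumors at a like level, with 13.1 CPM in tumor 1, 13.8 in tumor 2, 13.3 in tumor 3 and 13.01 in tumor 5, and was lowest in tumor 6 at 2.75. Ctla4, a regulatory T cell checkpoint, was likewise between 11.95 and 14.8 CPM in these 4 tumors and lowest in tumor 6 at 2.63. Of the lists, 6 of 6 checkpoint genes and 8 of 8 CD4 and regulatory T cell genes were above the trend, and 6 of 6 and 7 of 8 were without tumor 8. Ncr1, the NK cell receptor NKp46, was at 2.48 CPM in tumor 8 and between 6.04 and 12.3 in the others. The NK cell list had 6 of 7 genes above the trend, and 5 of 9 without tumors 1 and 8. Of all tested genes, 24% were above it, 20.7% without tumor 8 and 18.6% without tumors 1 and 8.

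**Figure D3:**
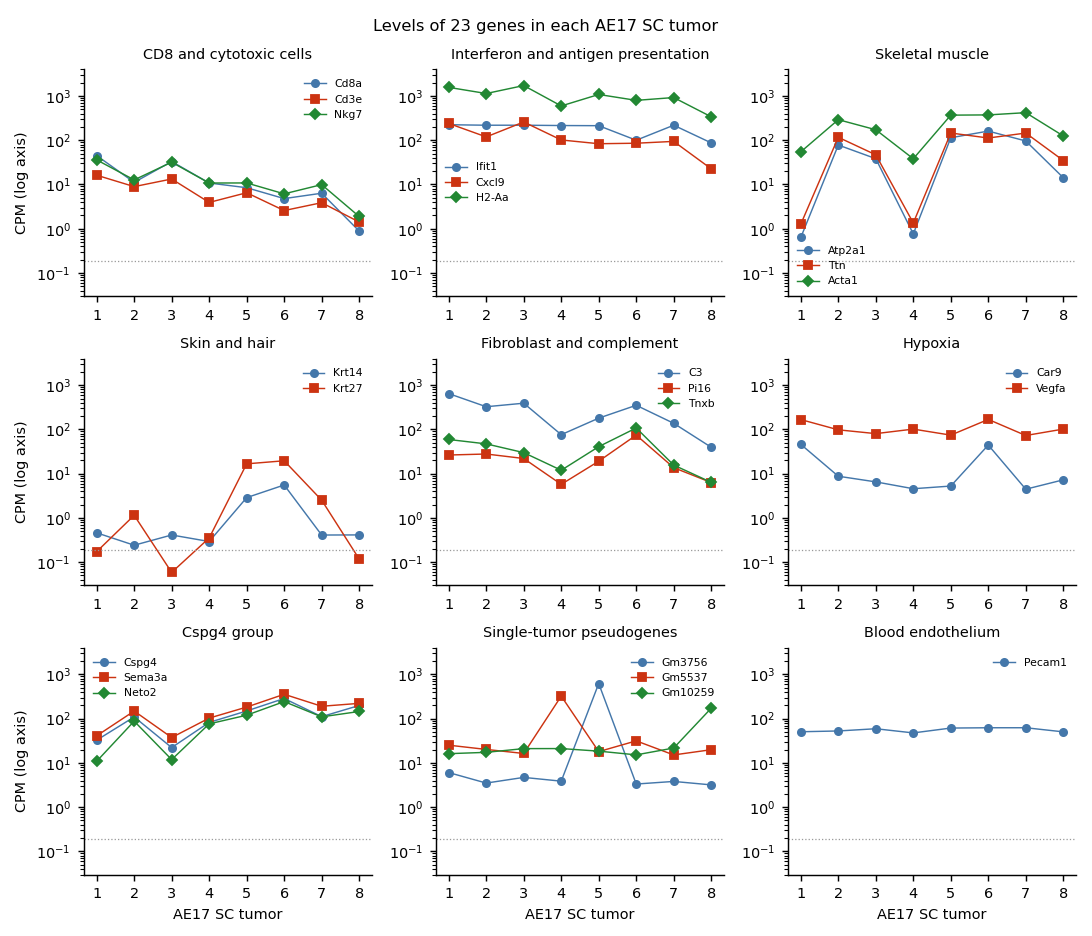
CPM (log axis) of 23 genes in each of the 8 AE17 SC tumors, grouped by what they mark; the dotted line is the level of 3 counts (0.188 CPM, the highest over the tumors). Cd8a, Cd3e and Nkg7 fall together in tumor 8, Atp2a1, Ttn and Acta1 fall together in tumors 1 and 4, and each of the 3 pseudogenes is high in a different tumor.

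To find which genes varied together with CD8 T cells, the slope of each gene on the CD8 T cell score was tested with edgeR's quasi-likelihood test, leaving out the 2 members of the list. Of 13261 genes, 2113 (15.9%) rose and 1806 (13.6%) fell with the score. All 19 interferon gamma response genes, all 18 type I interferon response genes, all 10 MHC class I genes, all 7 NK cell genes, all 6 cytotoxic genes, 13 of 15 T cell genes and 5 of 6 checkpoint genes rose, and none of these fell. The median slope was 0.65 for T cell, 0.42 for checkpoint, 0.33 for type I interferon and 0.25 for MHC class I genes, on the log2 scale per log2 unit of score, and -0.01 over all genes. The largest positive slopes by the naming rule were those of Pdcd1 (0.85, SE 0.0537, edgeR adjusted p 5.61e-05), Nkg7, Cd3g, the lymphoid transcription factor Ikzf3 and the nuclease Dnase1l3. The largest negative slopes were those of Neto2 (-0.98, SE 0.258, edgeR adjusted p 0.0287), Sox2, Shank2, Cspg4 and Cacna1a. Within the replication list, 9 of 18 genes fell and 0 rose, and 7 of 20 ribosomal protein genes fell. Without tumor 8, 3918 of the 3919 genes called kept the sign of their slope, 1758 of them were still called, and 1989 genes were called in all.

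The scores showed the same relation when compared in pairs. Pearson and Spearman correlations were computed over the 8 tumors for 1653 pairs of 52 lists and 6 library measures, with exact permutation over all orders of the tumors. Of the 1326 pairs of lists, 134 had a Pearson r with an adjusted p under 0.05, of which 125 were positive and 9 negative; 46 pairs passed by Spearman rho, and 42 by both. Leaving out tumor 1 or tumor 8 left 0 pairs, and leaving out another tumor left between 26 and 167. In 111 of the 134 pairs r kept its sign and a size of at least 0.7 without the 2 tumors farthest from the median of the pair's first score. The CD8 T cell score passed with 12 lists. It followed the checkpoint score with r = 0.984 and rho = 0.976 (exact permutation adjusted p 0.0103 and 0.0243), and r was 0.947 without tumors 1 and 8, the 2 farthest from the median. With the cytotoxic score r was 0.968 and rho 0.976 (the same adjusted p in the exact permutation test), and 0.939 without these 2. With the T cell score r was 0.936 (exact permutation adjusted p 0.0205) and 0.821 without them, but rho, at 0.929, did not pass (exact permutation adjusted p 0.0577). The closest relation was with the unfolded protein response, genes induced when folding in the endoplasmic reticulum fails, with r = 0.990 and rho = 1.00 (exact permutation adjusted p 0.0103 and 0.0243) and r = 0.970 without the 2 tumors. That list moved little, with an SD of 0.20, and 2 of its 10 genes were above the trend, close to the 24% of all genes. Immediate early genes also passed by both measures, with r = 0.9275 and rho = 0.9524 (exact permutation adjusted p 0.03481 and 0.04012) and r = 0.727 without the 2 tumors. The mammary and glandular epithelium list gave r = 0.9485 (exact permutation adjusted p 0.0287) and 0.8555 without them. Its rho of 0.8095 did not pass (exact permutation adjusted p 0.1706).

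Relations with other leukocytes differed in how far they rested on the 2 extreme tumors. For B cells, r with the CD8 T cell score was 0.906 (exact permutation adjusted p 0.0389) and 0.886 without tumors 1 and 8, and for NK cells 0.905 (exact permutation adjusted p 0.0348) and 0.780. For macrophages, r with the CD8 T cell score was 0.824 (exact permutation adjusted p 0.0827) and 0.422 without tumors 1 and 8, and for monocytes 0.840 (exact permutation adjusted p 0.0659) and 0.383. The CD4 and regulatory T cell score gave r = 0.745 (exact permutation adjusted p 0.143) and 0.675. Of single genes, 8 of 14 macrophage genes rose with the CD8 T cell score and 0 fell, against 15.9% and 13.6% of all genes. Replication gave r = -0.853 (exact permutation adjusted p 0.0730) and -0.424. Of these 6 lists, B cells and NK cells passed over all pairs by Pearson's r, but not by Spearman's rho, which was 0.833 and 0.810 (exact permutation adjusted p 0.145 and 0.171). Among the library measures, the share of counts on pseudogenes (7.87% to 8.97%) was negatively related to the CD8 T cell score, with r = -0.906 (exact permutation adjusted p 0.0393) and -0.689 without tumors 1 and 8. The total count gave r = 0.231 (exact permutation adjusted p 0.814) and the slope on GC content r = 0.542 (exact permutation adjusted p 0.400). In a fit corrected for GC content, 4314 genes were called on the CD8 T cell score, against 3919 in the main fit. The part of the total count and of the pseudogene share in the CD8 result was not tested.

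**Figure D4:**
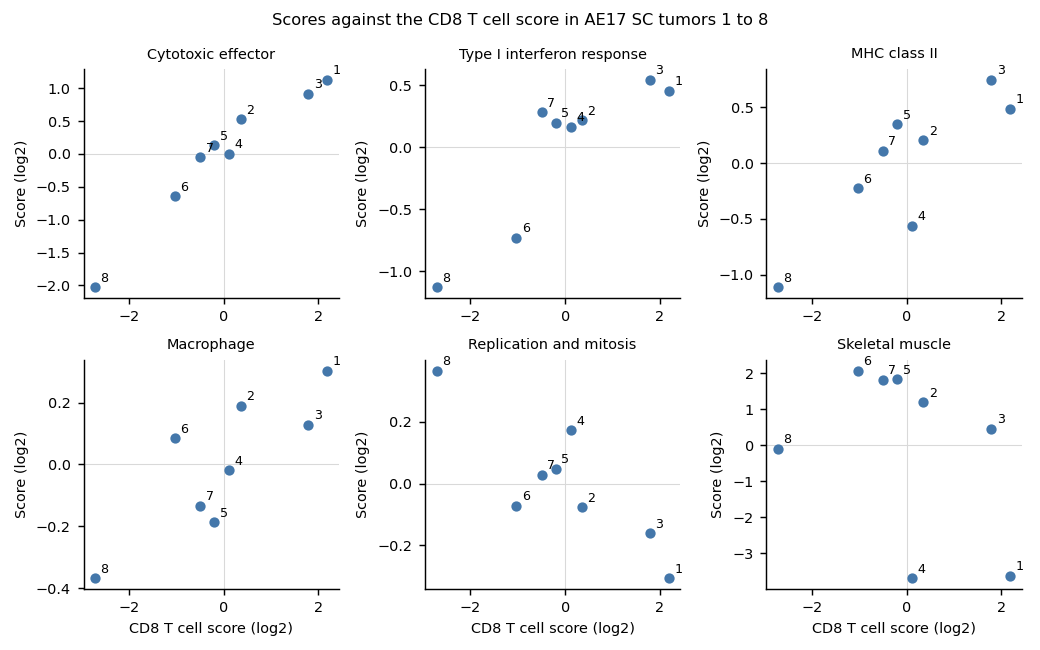
Scores of 6 lists (vertical, log2) against the CD8 T cell score (horizontal, log2), 1 numbered point per AE17 SC tumor. The cytotoxic score rises evenly with the CD8 score, tumors 6 and 8 lie apart for type I interferon, and tumors 1 and 4 lie apart for skeletal muscle.

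Interferon-induced genes moved as a block. All 18 tested type I interferon response genes were above the trend, with a median ratio of 16.1 and a median correlation of 0.975 between pairs of genes, and all 19 interferon gamma response genes, with a median ratio of 11.4. All 37 stayed above the trend without tumors 1 and 8 (24% of all genes with every tumor, 18.6% without these 2). To show what these genes carry at their starts, 100 bases of 4 promoters of the 2 lists are printed from RefSeq (GRCm38.p6), 5′ to 3′ on the strand of the gene. Capitals mark GAAANNGAAA, the core that interferon regulatory factors and the complex activated by type I interferon bind, or its reverse complement.
Ifit1: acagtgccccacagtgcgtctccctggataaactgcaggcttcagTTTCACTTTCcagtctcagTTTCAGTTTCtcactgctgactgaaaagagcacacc
Ifit3: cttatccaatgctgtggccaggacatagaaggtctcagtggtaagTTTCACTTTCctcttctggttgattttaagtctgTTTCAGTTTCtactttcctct
Cxcl10: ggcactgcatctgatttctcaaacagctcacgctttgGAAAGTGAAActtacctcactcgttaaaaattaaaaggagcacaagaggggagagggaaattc
Gbp2: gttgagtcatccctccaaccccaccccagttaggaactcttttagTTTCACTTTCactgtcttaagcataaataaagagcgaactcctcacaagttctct
The stretch of Ifit1 is chr19:34640740-34640839 on the plus strand, that of Ifit3 chr19:34583328-34583427 on the plus strand, that of Cxcl10 chr5:92349040-92349139 on the minus strand and that of Gbp2 chr3:142620559-142620658 on the plus strand. The motif was searched on both strands in windows of 300 bases, 250 before to 50 after each start. It was present in 944 of 27025 promoters (3.49%) and in 304 of the 8963 tested genes that matched a promoter (3.39%). Of the lists, 7 of 12 matched type I interferon genes and 9 of 12 matched interferon gamma genes held it, and 1 of 8 MHC class I genes.

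Type I interferon genes were low in tumors 6 and 8, while Cxcl9 had tumors 1 and 3 at its upper end. Ifit1, an interferon-induced RNA-binding protein, was at 100.0 CPM in tumor 6 and 87.0 in tumor 8, and between 213 and 224 in the others. Irf7, the factor that amplifies type I interferon, was at 134 and 86.3 CPM in these 2 tumors and at 240 to 404 in the rest. Cxcl9, the chemokine that draws T cells under interferon gamma, spread further, with 239 CPM in tumor 1, 258 in tumor 3, 83.3 to 119 in tumors 2, 4, 5, 6 and 7 and 22.6 in tumor 8. Cd274, which encodes PD-L1, was at 114 CPM in tumor 1, 112 in tumor 3 and 22.02 in tumor 8. Among the 6 tumors other than 6 and 8, the type I score had r = 0.942 with the interferon gamma score and 0.948 with MHC class I; since the 2 low tumors stood apart, no r over all 8 is given.

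All genes of antigen presentation that could be tested varied more than genes of like level. H2-K1, a class I heavy chain, ranged from 1141 CPM in tumor 6 and 1149 in tumor 8 to 2713 in tumor 1, a 2.38-fold range, and B2m, the light chain, from 1653 in tumor 8 to 3350 in tumor 1. All 10 MHC class I genes and all 8 MHC class II genes were above the trend, with median ratios of 8.41 and 16.3, and all stayed so without tumors 1 and 8 (24% and 18.6% of all genes). H2-Aa, a class II chain, was at 1720 CPM in tumor 3 and 1565 in tumor 1, at 595 in tumor 4 and at 338 in tumor 8.

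Slopes on the type I interferon score were called in 1588 genes (12%) with a positive and 912 (6.89%) with a negative sign of 13245. The largest positive ones belonged to T cell genes, Cd8a at 2.61 (SE 0.583, edgeR adjusted p 0.0207), Cd8b1, Cd3g and Nkg7, and to Siglech, a marker of plasmacytoid dendritic cells. Siglech was at 0.994 CPM in tumor 6 and 0.767 in tumor 8, 1.99 in tumor 4, and 4.15 to 6.94 in the others. Without tumor 8, 1375 genes were called, and without tumor 3, 1486.

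Macrophage genes spread by gene rather than as a block, with a median r of 0.581 between pairs, and mast cell genes moved together, with a median r of 0.919. Of the macrophage list 10 of 14 genes were above the trend, also without tumors 1 and 8 (24% and 18.6% of all genes), yet its score had an SD of 0.22, and C1qa, a complement subunit made by macrophages, lay between 369 and 731 CPM. Cpa3, the mast cell carboxypeptidase, was at 35.6 CPM in tumor 8, 37.2 in tumor 4 and 52.3 in tumor 6, and between 109 and 149.7 in the other 5, and 6 of 6 mast cell genes were above the trend. Plasma cell genes were low and highest in tumor 3, where Igkc, the kappa light chain, was at 10.0 CPM against a median of 3.00 and a lowest value of 0.586 in tumor 4.

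Skeletal muscle genes varied more than those of any other list. Atp2a1 (chromosome 7), the calcium pump of fast muscle fibers, was at 0.634 CPM in tumor 1, 77.9 in tumor 2, 38.3 in tumor 3, 0.762 in tumor 4, 114 in tumor 5, 161 in tumor 6, 96.1 in tumor 7 and 14.2 in tumor 8, a 254-fold range with a ratio to the trend of 207, the second largest of all tested genes. Ttn, which encodes the giant sarcomere protein titin, was at 1.27 and 1.35 CPM in tumors 1 and 4 and between 34.8 and 145 in the other 6. Myh4, the fast myosin heavy chain, was at 0 in tumor 1 and 0.0586 CPM in tumor 4, both under the detection limit, and at 254 CPM in tumor 6. Other muscle genes stayed above the limit in tumors 1 and 4, such as Neb at 4.15 and 2.23 CPM and Des at 4.78 and 2.58. Acta1, skeletal actin, kept 54.7 and 38.1 CPM in these 2 tumors against 125 to 420 in the others. Of the 10 muscle genes tested, 9 were above the trend, with a median ratio of 100.2 and a median r of 0.976 between pairs, and 10 of 11 were without tumors 1 and 8 (24% and 18.6% of all genes).

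Of 13253 genes outside the list, 7 (0.0528%) rose and 1 (0.00755%) fell with the muscle score by edgeR, while DESeq2 called 46, and 147 were called by edgeR when every gene with any count was kept. Those named by the rule were Mybpc1, a myosin-binding protein (slope 0.87, SE 0.0697, edgeR adjusted p 0.00124), Fhl1, Nrap, the muscle glycogen phosphorylase Pygm and Jph2, all of them muscle genes, and the pseudogene Gm12396 fell. Among the 6 tumors other than 1 and 4, r with the myogenic regulator score was 0.896 (exact permutation p 0.0597, unadjusted).

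Hair follicle and several keratinocyte genes were highest in tumors 5 and 6. Krt27, a keratin of the inner root sheath of the hair, was at 16.7 CPM in tumor 5, 19.6 in tumor 6, 2.52 in tumor 7, 1.15 in tumor 2 and 0.352 in tumor 4, and at or under the detection limit in tumors 1, 3 and 8. Krt25, another keratin of that sheath, was at 18.1 and 15.7 CPM in tumors 5 and 6 and at 0 in tumors 1, 4 and 8. Krt14, of basal keratinocytes, was at 2.88 and 5.55 CPM in tumors 5 and 6 and between 0.242 and 0.461 in the other 6. Only 1 of the 12 hair follicle genes and 4 of the 14 keratinocyte genes with a row could be tested, of which 1 and 2 were above the trend, against 24% of all genes. These 4 keratinocyte genes did not move together, with a median r of -0.02 between pairs; Krt10, of differentiating keratinocytes, lay between 1.94 and 2.98 CPM in all 8 tumors with a ratio of 0.432. No gene was called on the keratinocyte score in either direction by edgeR (0% of 13259, 1021 at an unadjusted p under 0.05), while DESeq2 called 57 and limma-voom 2. Adipoq, the adipocyte hormone adiponectin, was at 7.94 CPM in tumor 5 and 6.80 in tumor 1, at 0 in tumor 4, and between 1.09 and 2.93 in the others. Hp, haptoglobin, which fat also makes, was at 86.1 CPM in tumor 5 and 57.1 in tumor 1 and at 2.29 in tumor 4.

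Fibroblast and complement scores were highest in tumor 6 or 1 and lowest in tumors 4 and 8, and the red cell score was highest in tumor 6 and lowest in tumors 7 and 8. Pi16, of dermal and adventitial fibroblasts, was at 74.5 CPM in tumor 6, at 5.74 in tumor 4 and 6.32 in tumor 8, and between 13.7 and 27.8 in the others. Tnxb, the matrix protein tenascin X, ranged from 6.38 CPM in tumor 8 through a median of 35.4 to 108 in tumor 6; it shares sequence with Tnxa, so the split between them is uncertain. C3, the central complement component, was at 646 CPM in tumor 1, 326 in tumor 2, 392 in tumor 3, 76.2 in tumor 4, 180.0 in tumor 5, 352 in tumor 6, 138 in tumor 7 and 39.6 in tumor 8. All 10 fibroblast and all 8 complement genes were above the trend, with median ratios of 16.8 and 14.5. Hba-a1, alpha globin of red cells, was at 62.3 CPM in tumor 6 and 35.1 in tumor 1 and at 7.91 in tumor 8. Hba-a1 and Hba-a2 are near-identical copies, so the split of reads between them is uncertain. Col1a1, the main fibrillar collagen, was at 4402 to 6779 CPM with a ratio of 1.93. Of 14 collagen and matrix genes 7 were above the trend, against 24% of all genes, with a median ratio of 2.92, and 10 were so without tumors 1 and 8.

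Hypoxia genes were set apart in tumors 1 and 6. Car9, a carbonic anhydrase induced by low oxygen, was at 46.1 CPM in tumor 1 and 44.4 in tumor 6 and between 4.46 and 8.76 in the other 6. Vegfa, the angiogenic factor, was at 167 and 169 CPM against 72.9 to 102, and Bnip3, a mitophagy receptor, at 90.8 and 119 CPM against 27.8 to 53.6. Slc2a1, the glucose transporter GLUT1, did not follow this order, with 344 CPM in tumor 1 and 195 in tumor 6 against a median of 199. All 17 hypoxia and glycolysis genes were above the trend, with a median ratio of 8.44, also without tumor 8, and 14 of 17 were without tumors 1 and 8. The shares of all tested genes were 24%, 20.7% without tumor 8 and 18.6% without tumors 1 and 8. Among the 6 tumors other than 1 and 6, r with the erythroid score was 0.745 (exact permutation p 0.0819, unadjusted). The starts of Car9 and Bnip3 are printed in the same way, with capitals on ACGTG, the core bound by hypoxia-inducible factors, or its reverse complement.
Car9: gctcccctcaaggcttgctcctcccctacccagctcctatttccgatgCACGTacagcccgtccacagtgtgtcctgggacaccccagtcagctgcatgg
Bnip3: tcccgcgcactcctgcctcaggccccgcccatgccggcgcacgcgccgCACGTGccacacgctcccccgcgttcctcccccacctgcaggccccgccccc
They are chr4:43506960-43507059 on the plus strand and chr7:138909563-138909662 on the minus strand; in Bnip3 the capitals join overlapping matches on the 2 strands. The core was present in 10 of 16 matched hypoxia genes and in 5305 of 27025 promoters (19.6%), and in 25.1% of the matched tested genes. A match is a description of these letters and not a binding site.

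The 500 genes with the largest ratio and a mean of at least 1 CPM, down to a ratio of 12.5, were grouped by average linkage on 1 minus r, cut at 0.3, which placed 447 of them in 7 clusters. Since the grouping used these values, the clusters are described with no test. The largest held 264 genes, of which 241 were lowest in tumor 8 and 131 highest in tumor 1. It took in 15 of 18 type I interferon, 10 of 15 T cell, both CD8 and 6 of 8 MHC class II genes, and its 8 members closest to the mean were Rasa4, Cd274, Ifi35, Gbp8, Batf2, Ms4a4b, Itgal and Phf11b. The interferon motif was present in 37 of its 197 matched promoters (18.8%).

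The second cluster held 60 genes that ran the other way, with 51 highest in tumor 6 and the lowest mean z scores in tumors 1 and 3. It included the developmental transcription factors Sox5 and Sox9 and the surface proteoglycan Cspg4, and held 0 genes of the type I interferon and T cell lists. Neto2, an auxiliary subunit of kainate receptors, was at 10.9 CPM in tumor 1 and 11.9 in tumor 3, 76.3 to 145 in tumors 2, 4, 5, 7 and 8, and 243 in tumor 6, with a ratio of 97.5. Cspg4 was at 32.7 and 22.2 CPM in tumors 1 and 3 and 286 in tumor 6, and Sema3a, a secreted guidance factor, at 41.0, 37.5 and 356. Cspg4 also marks pericytes; 4 of 8 genes of the pericyte and smooth muscle list were above the trend, 6 of 8 without tumor 8 and 5 of 8 without tumors 1 and 8, against 24%, 20.7% and 18.6% of all genes. Its score lay between -0.61 in tumor 4 and 0.39 in tumor 6, Rgs5, another pericyte gene, was at 46.1 to 74.1 CPM, and the part of pericytes in this cluster was not tested.

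The smaller clusters each had a plain pattern. The third, of 55 genes, held 6 of 10 fibroblast and 4 of 5 erythroid genes with Tnxb, Igfbp5 and Pi16, and 43 of them were highest in tumor 6 and 42 lowest in tumor 8. The muscle cluster held 23 genes with a median range of 24-fold. A cluster of 17 genes, 16 of them highest in tumor 8, held Mest, the matrix gene Col11a1 and H19. Mest and H19 are imprinted genes of fetal growth. Mest was at 353 CPM in tumor 8, 232 in tumor 7 and 52.2 in tumor 1, and H19, a noncoding RNA, at 93.3, 68.9 and 5.87. The hypoxia cluster held 16 genes, with Car9, Bnip3, Hmox1 and Vegfa. In the last, of 12 genes, all were highest in tumor 6, with Crip1, a LIM domain protein, at 287 CPM there and 65.7 to 112 elsewhere, the matrix protease Mmp11 at 124 CPM against 41.1 to 67.4, and fibronectin Fn1 at 5468 CPM against 1581 to 2811.

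Replication and mitosis genes spanned a narrower range than T cell genes, with the score highest in tumor 8 and lowest in tumors 1 and 3. Mki67, a marker of cycling cells, was at 547 CPM in tumor 8 and 450 in tumor 4, at 210 in tumor 3 and 269 in tumor 1, and at 376 to 411 in the others. Top2a, the replication topoisomerase, spanned 311 to 566 CPM in the same order at both ends. Of 18 replication and mitosis genes 8 were above the trend, against 24% of all genes, with a median ratio of 2.29; 5 were so without tumor 8 and 3 without tumors 1 and 8. On this score 1001 genes (7.56%) rose and 1157 (8.74%) fell of 13245, among which 13 of 15 T cell and 7 of 8 complement genes fell. Without tumor 8, 0 genes were called by edgeR, and without tumor 1, 275, against 1167 to 3829 without each of the other tumors. The number called thus depended on which tumor was left out.

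Blood vessels and housekeeping programs were the steadiest. Pecam1, the adhesion molecule of endothelial cells, lay between 47.6 and 62.4 CPM in all 8 tumors, Cdh5, their cadherin, between 37.6 and 51.97, and Kdr, the main VEGF receptor, between 23.2 and 39.6. Of the 13 blood endothelial genes 2 were above the trend, fewer in share than the 24% of all genes, and the median ratio was 1.08. Without tumor 8, 3 of 13 were above it (20.7% of all genes), and without tumors 1 and 8, 0 of 13 (18.6%). None of 20 ribosomal protein genes and none of 15 oxidative phosphorylation genes was above the trend, with median ratios of 0.593 and 0.626.

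By the ratio to the trend, the most variable gene was a pseudogene high in 1 tumor. Gm3756 (chr9:31935446-31936800, a processed pseudogene in GENCODE M21) was at 622 CPM in tumor 5 and between 3.19 and 6.05 in the other 7, with a ratio of 536, and without tumor 5 the ratio was 1.07. Gm5537 was at 324 CPM in tumor 4 against 15.1 to 31.5, Gm10231 at 169.9 in tumor 1 against 16.2 to 21.9, RP24-389J11.1 at 123 in tumor 6 against 5.18 to 10.0, and Gm10259 and Gm15453 at 172 and 161 CPM in tumor 8 against 12.5 to 22. Without its high tumor, the ratio was 0.629 for Gm10231, 1.30 for Gm10259, 2.08 for Gm15453 and 2.53 for RP24-389J11.1, none of them above the trend, and 3.87 for Gm5537, which stayed above it. High values were not particular to AE17 SC. In AB1 SC, Gm3756 reached 418.6 CPM against a median of 7.3, RP24-389J11.1 124.8 against 9.355 and Gm5537 102.5 against 19.92. Pseudogenes made up 15 of the 50 genes with the largest ratios (30%), 9.4% of the leading 500 and 11.2% of all tested genes. Processed pseudogenes share reads with the genes they copy, so their counts are uncertain. Gm8979, an unprocessed pseudogene on chromosome 7, was at 142 CPM in tumor 1 and 29.4 in tumor 6 and at 1.12 to 9.60 elsewhere. Low values in a single tumor were also seen. Ccl21a, the chemokine of lymphatic vessels, was at 0.760 CPM in tumor 6 and between 8.06 and 45.6 in the other 7, and Moxd1, a monooxygenase-like protein, at 1.17 CPM in tumor 6 against 4.43 to 40.1. Ccl21a has near-identical copies in the genome, so its count is uncertain.

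Set beside AB1 SC, the AE17 SC tumors spread more in most lists, although few differences passed a test. The common biological coefficient of variation was 20.9% in AE17 SC and 13.8% in AB1 SC, and the median SD per gene 0.20 and 0.15 on the log2 scale. In AB1 SC 2125 of 13392 genes (15.9%) were above their own trend. Of the genes tested in both, 1318 were above the trend in both groups, 44.9% of those of AE17 SC and 66.3% of those of AB1 SC. The SD of the score was larger in AE17 SC for 43 of 52 lists. By an exact two-sided permutation test of the mean absolute deviation, over all splits of the 16 tumors, the hair follicle list differed, with SDs of 1.99 and 0.49 (exact permutation p 0.000155, the smallest this test can give, adjusted p 0.00808). This call was lost when AB1 SC was limited to its 6 tumors on 1 lane. The T cell list had SDs of 0.97 and 0.36 (exact permutation p 0.0148, adjusted p 0.339), and the CD8 T cell list 1.55 and 0.41 (exact permutation p 0.0524, adjusted p 0.545), neither of which passed over the 52 lists. Skeletal muscle varied widely in both groups, with SDs of 2.37 and 1.64 (exact permutation p 0.442, adjusted p 0.765). AB1 SC was on lanes 2 and 3, so line, strain, number of cells given and lane cannot be told apart in these comparisons.

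**Figure D5:**
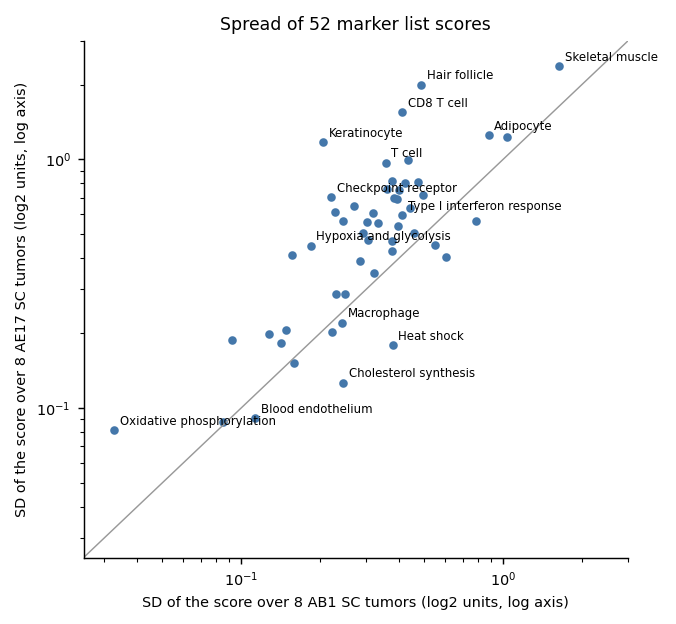
SD of each marker list score over the 8 AE17 SC tumors (vertical, log axis) against the SD over the 8 AB1 SC tumors (horizontal, log axis), in log2 units, with the line of equality. Of the 52 lists, 43 lie above the line; hair follicle, at 1.99 against 0.49, was the only list past the test of the difference, and that call was lost within 1 lane of AB1 SC.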

How the data were processed

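RNA-seq of 8 AE17 SC tumors was described, with 8 AB1 SC tumors for context; the other groups were not used here. Per the study's methods and the submitters' processing notes, the authors sequenced 50 bp single-end reads (bcl2fastq 1.8.4), mapped them with HISAT2 2.0.4 to a mouse build written as mm11 and counted them with SummerizeOverlaps. They deposited raw counts per gene without normalization. Whether counting used strand is not given in the sources used here, so overlapping genes are uncertain. Of 39676 gene identifiers, 39495 matched GENCODE M21 (GRCm38) without and 36719 with the version, and coordinates come from there. Sample titles gave groups, and the names of the alignments gave lanes. Total counts were 16013042 to 17740547 per AE17 SC tumor; limits of 3 counts cover counting error only. P values measure the spread between these mice.

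Counts were fitted in R 4.3.3 with edgeR 4.0.16 (filterByExpr, TMM, robust glmQLFit), and repeated with DESeq2 1.42.0 and limma 3.58.1. An upper-tail F test compared each gene's quasi-dispersion with its trend; since it called no gene, a chi-square test against the trend was added after seeing the data. It takes the trend as exact, so it says that a gene spread more than a typical gene of its level. Slopes on 5 scores were tested two-sided with glmQLFTest. Scores used members with at least 10 counts in total, TMM and a prior count of 2. Correlations and spread were tested by exact two-sided permutation in Python 3.11.15 (scipy 1.17.1). Benjamini-Hochberg adjustment covered all genes or all pairs, and the threshold was 0.05. The fits of spread and slope were run on simulated counts in which nearly all genes shared a single dispersion. In the data the true spread differs between genes (prior degrees of freedom 2.86). These runs therefore cannot tell how often the chi-square test calls too many. The marker lists, and the question itself, were chosen with earlier results of these data known; of 53 lists, 1 had no row used here. Genes named are the 15 above the trend with the largest ratio (mean of at least 1 CPM), the 15 with the largest SD (mean of at least 10 CPM), the first 3 members of each list and up to 5 more with the largest ratio, the 5 largest slopes in each direction, and the 8 genes closest to each cluster mean; the design applied the ranking to F test calls, and others named (such as Rgs5, Krt14, Krt10, Gzmk, Slc2a1, Fn1 and Moxd1) were chosen after their values were seen. Plots were drawn with matplotlib 3.10.9.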

Additional observations from a re-analysis of the deposited data

Results flagged for a closer look

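The highest or lowest of the 8 tumors was examined for 47 genes, 52 scores and 6 library measures, and in 15 of these 105 cases its gap to the nearest other tumor, as a part of the whole range (for genes on the log2(CPM + 0.1) scale), exceeded Dixon's 95% critical value; chance alone does so in about 1 of 20 groups, a rate that does not hold for these genes, since many were chosen for their spread. Of the 11 genes, 6 were pseudogenes high in a single tumor, with Gm3756 in tumor 5 at 0.881 of the range, Gm10231 in tumor 1 at 0.873, Gm10259 in tumor 8 at 0.854, RP24-389J11.1 in tumor 6 at 0.793, Gm15453 in tumor 8 at 0.779 and Gm5537 in tumor 4 at 0.761. In tumor 6, Crip1 (0.639) and Mmp11 (0.553) stood above the rest and Ccl21a (0.567) below. Adipoq was low in tumor 4 (0.564), where it had no count, so that this gap was set by the pseudocount: with the value held at the limit of 3 counts, an alternative chosen after seeing the data, it was 0.433, under the critical value. Cxcl9 was low in tumor 8 (0.536). Among the scores, tumor 8 stood below the others for NK cells (0.606) and eosinophils (0.629) and above them for ribosomal proteins (0.646), and tumor 6 stood below for cholesterol synthesis (0.542). None of the 6 library measures did so.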

How the results depend on the processing

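The F test of spread called 0 genes, and also 0 whichever tumor was left out, but 174 when every gene with any count was kept, 94 by DESeq2 dispersion outliers, 2888 by a chi-square test of stabilized variance and 3186 against the trend; in AB1 SC the last gave 2125 in place of 5. Leaving out each tumor gave 2784 to 3128 genes above the trend. Calls on the CD8 T cell score were 1985 at an adjusted p under 0.01 and 1989 to 4402 without each tumor (2426 without tumor 1), those on type I interferon 971 and 1375 to 2961, and those on replication 271 and 0 to 3829, with 887 for a median score. Without tumor 2, 3, 6 or 7 the replication calls were 1167, 1340, 3829 and 1373. Muscle calls were 147 with every gene kept, 46 by DESeq2 and 7 to 11 without each tumor, and keratinocyte calls 70, 57 by DESeq2, 2 by limma-voom and 0 to 2. List pairs called ranged from 0 (without tumor 1 or 8) to 167 without each tumor (55, 26, 71 and 73 without tumors 2, 3, 5 and 7), and from 104 to 143 under other scalings and scores. Within 1 lane of AB1 SC, 0 lists differed in spread. None of the genes, list pairs and counts reported reversed under the alternatives run, and 1 of the 3919 genes called on the CD8 T cell score changed sign without tumor 8. Among single genes and list pairs, 806 values kept their call, 17 lost it and 2 gained one. The cause of these shifts was not tested. No paired analysis was possible because the 8 tumors form a single group. Depth limits genes near 0.188 CPM.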
